A study of Mus musculus with 2 samples.

Results

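Astrocytes chosen for UMIs of *Gfap*, *Myoc* and *C4b*, of which only part held *Myoc*, were described here. They came from single-cell RNA sequencing of the mouse ventral parafacial region, a strip of the medulla that borders the ventral surface of the brainstem. They are called fibrous surface astrocytes below, which is a name for cells that passed a count rule, since the position of a cell in the tissue was not measured. A filtered cell had at least 800 genes, at most 50 hemoglobin UMIs (unique molecular identifiers, each standing for 1 captured transcript) and at most 20% mitochondrial UMIs. Members were chosen by measured UMIs. A member had at least 4 UMIs of the astrocyte genes *Aqp4*, *Gja1*, *Slc1a3* and *Clu* together and at least 4 UMIs of *Myoc*, *Gfap* and *C4b* together. It also had at most 2 UMIs of the microglial and endothelial genes *C1qa*, *C1qb*, *Cldn5* and *Flt1*, at most 1 of *Mog* and *Mag*, at most 1 of *Pdgfra* and *C1ql1*, and 0 of *Slc32a1* and *Slc17a6*. The rule found 619 members among 12395 filtered cells, of which 166 were untreated and 453 came from the library with 4OH-tamoxifen. Astrocytes that passed every other part of the rule but had fewer than 4 UMIs of *Myoc*, *Gfap* and *C4b* numbered 552 and 1308, and served as the comparison. The mice were wild type C57BL6/J at 10 days of age, and no transgene was named for either group. Each library pooled 8 mice (4 of each sex), without treatment in batch 1 and with 0.2 mg of 4OH-tamoxifen daily for 3 days in batch 2. Treatment, batch, mice and library therefore cannot be told apart, and no test between the conditions or between members and other astrocytes was made.

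Astrocytes of the grey matter, the protoplasmic form, wrap synapses and clear glutamate, GABA and glycine, whereas fibrous astrocytes lie in white matter and at the brain surface, where their processes form the glial limiting membrane. Fibrous cells carry more of the intermediate filament protein GFAP. At the ventral medullary surface astrocytes are also studied for their part in the sensing of CO2 and pH, through potassium channels, bicarbonate transport and connexins.

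*Gfap* (chromosome 11, 102887336 to 102900912, minus strand, GRCm38) encodes the intermediate filament protein of astrocytes. *Myoc* (chromosome 1, 162639155 to 162649693, plus strand) encodes myocilin, a secreted glycoprotein best known from the outflow tissue of the eye. *C4b* (chromosome 17, 34728380 to 34743882, minus strand) encodes complement component 4, and its reads can be hard to assign because *C4a* is a near-identical copy. The upstream sequence of *Gfap* and *Myoc* is shown because the *Myoc* level, described below, separated members that shared *Gfap*. These 270 bases come from RefSeq (GRCm38.p6), 250 before and 20 after the annotated start, at chr11:102897181-102897450 on the minus strand for *Gfap* and chr1:162638900-162639169 on the plus strand for *Myoc*. RefSeq's start of *Gfap* lies inside the span that GENCODE gives the gene above. Capitals mark matches, on either strand, to a STAT motif (TTCNNNGAA), an AP-1 motif (TGANTCA) and a TATA box (TATAAA).
Gfap: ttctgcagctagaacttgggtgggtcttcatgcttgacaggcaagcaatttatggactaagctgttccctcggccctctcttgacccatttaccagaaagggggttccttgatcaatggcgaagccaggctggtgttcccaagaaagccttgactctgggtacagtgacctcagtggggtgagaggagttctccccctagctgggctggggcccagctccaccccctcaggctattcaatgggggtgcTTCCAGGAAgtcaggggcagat
Myoc: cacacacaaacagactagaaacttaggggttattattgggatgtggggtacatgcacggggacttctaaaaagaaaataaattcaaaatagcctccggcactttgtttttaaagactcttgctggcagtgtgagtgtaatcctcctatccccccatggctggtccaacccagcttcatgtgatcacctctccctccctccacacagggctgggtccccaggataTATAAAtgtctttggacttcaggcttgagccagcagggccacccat
*Gfap* held a STAT match at bases 249 to 257 of the window, and *Myoc* held a TATA box at bases 225 to 230. Of 27025 genes with a sequence, 8.74% held the STAT motif in such a window, 14.9% the TATA box and 8.35% the AP-1 motif.

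Fibrous surface astrocytes were 4.96% (4.25 to 5.75) of filtered untreated cells and 5.01% (4.57 to 5.48) of filtered 4OH-tamoxifen cells. Among all cells that passed the astrocyte part of the rule and its limits on other types they were 23.1% (20.1 to 26.4) of 718 and 25.7% (23.7 to 27.8) of 1761. Intervals here and below are exact at 95% (binomial for shares, Poisson for levels) and cover counting error only, not the spread between mice or preparations. For filtered cells, each library's share lay within the other's interval. With at most 10% mitochondrial UMIs per cell they separated, at 1.94% untreated and 3.37% with 4OH-tamoxifen, and with at least 1200 genes they were 4.78% and 3.29%. The median untreated member had 2995 UMIs and 1452 genes, and the median 4OH-tamoxifen member 2123 UMIs and 1122 genes. Other astrocytes had 2567 UMIs and 1210 genes, and 2011.5 UMIs and 1024.5 genes. Mitochondrial UMIs had a median of 11.6% and 10.3% in members and 13.1% and 11.9% in other astrocytes. Of 40 cell barcodes that occurred in both libraries, 1 was an untreated member, 1 a 4OH-tamoxifen member, and 0 were members in both libraries. Scrublet, a doublet caller, marked 6 of 3767 untreated barcodes and 544 of 10241 barcodes of the other library, and 1 and 10 of these were members. They were kept in the main values. The caller's score thresholds, set in each library on its own, were 0.512 untreated and 0.179 with 4OH-tamoxifen. The numbers marked are therefore not on the same scale.

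The genes that chose the members were spread unevenly over them. *Gfap* was counted in all 166 and all 453 members, with a median of 13 and 11 UMIs per cell and a highest value of 105 and 82. *Myoc* was counted in 60.2% (52.4 to 67.7) of untreated and 42.2% (37.6 to 46.9) of 4OH-tamoxifen members, with up to 31 and 15 UMIs per cell. *C4b* was counted in 60.2% (52.4 to 67.7) and 43.7% (39.1 to 48.4), with up to 8 and 6 UMIs per cell. The libraries differed in depth. After each cell was thinned to 2000 UMIs, which left out 12 and 192 shallower members, *Myoc* was in 57.1% and 40.6% and *C4b* in 44.2% and 31.8%. Members were chosen by these genes before thinning, and the part of depth in the difference was not tested. In microglia, which should lack these genes, *Gfap* was counted in 41.8% and 38.8%, *Myoc* in 3.75% and 1.59% and *C4b* in 2.31% and 2.23%, at medians of 4034 and 2381 UMIs. Microglia were gated without a limit on astrocyte genes. In thinned microglia the *Gfap* share was 26.7% and 30.0%, against 28.2% and 35.1% of thinned other astrocytes, so 1 *Gfap* UMI did not separate microglia from astrocytes with few UMIs of the gene. Members with all 3 genes were 41.6% (34.0 to 49.5) of untreated and 22.3% (18.5 to 26.4) of 4OH-tamoxifen members. Members with *Gfap* and neither of the others were 21.1% (15.1 to 28.1) and 36.4% (32 to 41.0).

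**Figure D1:**
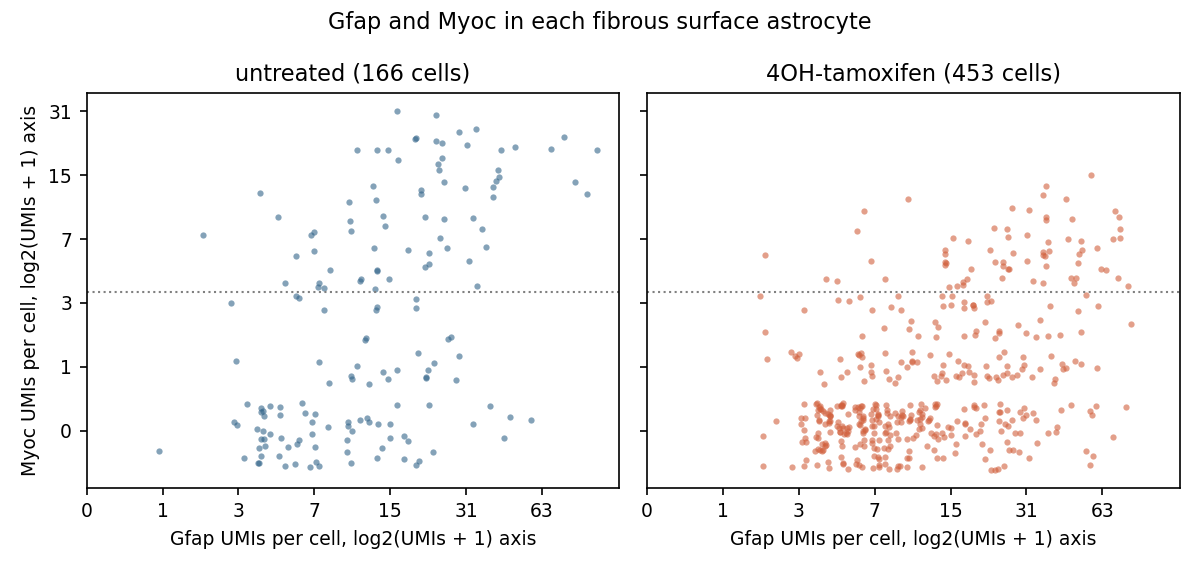
*Gfap* against *Myoc* UMIs in each member, with both axes on a log2(UMIs + 1) scale, a small random shift to part equal values, and 1 panel per library. The dotted line lies between 3 and 4 *Myoc* UMIs; 71 of 166 untreated and 69 of 453 4OH-tamoxifen members lie above it, while 66 and 262 lie at 0.

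The UMI sum of *Myoc*, *Gfap* and *C4b* was spread without a gap at the threshold of 4. In the astrocyte gate 325 untreated and 708 4OH-tamoxifen cells had 0 UMIs of *Myoc*, *Gfap* and *C4b*. Just outside the rule, 24 and 63 cells had 3 UMIs and 62 and 171 had 2, and just inside it 16 and 50 cells had 4, 9 and 23 had 5, and 23 and 126 had 6 to 10. Further inside, 68 and 158 cells had 11 to 29, and 50 and 96 had 30 or more. In members these genes reached 1691 and 627 CPM (UMIs of a gene summed over the cells and scaled to the same total UMIs in each group) for *Myoc*, against 10.4 and 5.68 in other astrocytes, values that the rule itself fixed. *Gfap* was at 5418 and 7758 CPM against 197 and 265, and *C4b* at 381 and 320 CPM against 11.7 and 12.6. *Gfap* in microglia was at 205 and 332 CPM, no lower than in the other astrocytes.

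The level of *Myoc* differed between the libraries in the opposite direction to that of *Gfap*. In members, which were chosen on a sum that held both genes, *Myoc* was 2.70 times (2.44 to 2.99) as high in the untreated as in the 4OH-tamoxifen library. *Gfap* was 0.698 times (0.669 to 0.729) as high. The same held over all filtered cells, where no rule on these genes applied. There *Myoc* was at 88.2 CPM (83.8 to 92.8) and 30.0 CPM (28.1 to 31.9), a ratio of 2.94 (2.71 to 3.19), and *Gfap* at 377 CPM (367 to 386) and 487 CPM (479 to 495), a ratio of 0.773 (0.751 to 0.796). *C4b* differed less, at 21.7 CPM and 18.7 CPM over all filtered cells, a ratio of 1.16 (1.02 to 1.33). Members held 60.9% of the 1502 untreated *Myoc* UMIs and 66.5% of the 962 in the other library. Another 31.2% and 21.1% lay in the 74 and 177 cells that passed both UMI sums of a member but exceeded a limit on genes of another cell type. The rest of the gate, the other astrocytes, held 1.07% and 1.87%.

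Beyond the rule's genes, *Lpl*, *Id4* and *Cd44* had the highest ratios of members over other astrocytes when genes with at least 50 CPM in members were ordered by the smaller of the ratios of the 2 libraries. Because the same cells' counts chose the members, these values are a description with no test. Of 6616 genes with a mean of at least 20 CPM, 144 (2.18%) were at least 2-fold higher in members in both libraries, after 10 CPM was added to each level. Those highest in that order included *Lpl*, *Id4*, *Cd44*, *Mia*, *Slc38a1*, *Tnc*, *Hopx*, *Slc16a1*, *Plat*, *Man1c1*, *1500009L16Rik*, *Cidea*, *Nnat* and *Sulf2*. Their ratios against other astrocytes ranged from 5.18 to 12.7 in untreated and from 4.86 to 8.68 in 4OH-tamoxifen cells.

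A lipase and 2 carriers were among the named genes. *Lpl*, lipoprotein lipase, which frees fatty acids from lipoproteins, had 183 CPM (149 to 223) in untreated members and 96.0 CPM (77.9 to 117) in those with 4OH-tamoxifen, against 5.19 and 2.21 CPM in other astrocytes, a ratio of 12.7 and 8.68. *Slc38a1*, a carrier of glutamine and other neutral amino acids, was at 285 and 367 CPM against 18.2 and 52.1, a ratio of 10.5 and 6.08. *Slc16a1*, the monocarboxylate transporter MCT1, which moves lactate and ketone bodies with a proton, was at 538 and 398 CPM against 83.1 and 61.8, a ratio of 5.89 and 5.67. All 3 carriers and enzymes were thus higher in the members of each library. *Cidea*, a lipid droplet protein, had ratios of 9.27 and 4.90.

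Some of the named genes encode matrix or surface proteins, although the list of matrix and secreted genes, given further on, had medians near 0. *Cd44*, the receptor for hyaluronan and a marker of fibrous astrocytes, was at 146 CPM (116 to 182) and 155 CPM (131 to 181) against 5.84 and 13.2 CPM, a ratio of 9.86 and 7.09. *Tnc*, the matrix glycoprotein tenascin C, was at 240 and 134 CPM against 24.0 and 13.9, a ratio of 7.36 and 6.04. *Sulf2*, which removes sulphate groups from heparan sulphate, had ratios of 9.60 and 4.86, and *Plat*, tissue plasminogen activator, 5.18 and 6.18. *Mia*, a small secreted protein, had ratios of 7.39 and 6.96. After thinning, *Cd44* was counted in 23.4% of members of each library, against 0.418% and 1.94% of other astrocytes and 0.890% and 0.222% of microglia.

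Among regulators, *Id4*, which blocks basic helix-loop-helix factors, was at 346 CPM (298 to 399) and 280 CPM (249 to 314), against 26.0 and 27.1 CPM in other astrocytes, a ratio of 9.90 and 7.81. It was counted in 62.7% and 44.6% of members, 6.70% and 5.96% of other astrocytes and 1.15% and 2.39% of microglia, and after thinning in 50% and 39.8% of members. *Hopx*, a homeodomain protein of neural stem cells, had ratios of 6.59 and 5.90, and *Nnat*, a membrane proteolipid from an imprinted gene, 5.41 and 4.90. Genes named next were chosen after their values were seen. *Aplnr*, the apelin receptor, had ratios of 5.65 and 4.52, while *Apln*, its ligand, was 3.95 and 2.42 times lower in members. *Il6st*, the signal-transducing receptor of the interleukin 6 family, had ratios of 4.89 and 4.00, and *Reln*, the secreted glycoprotein reelin, 4.73 and 5.07.

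**Figure D2:**
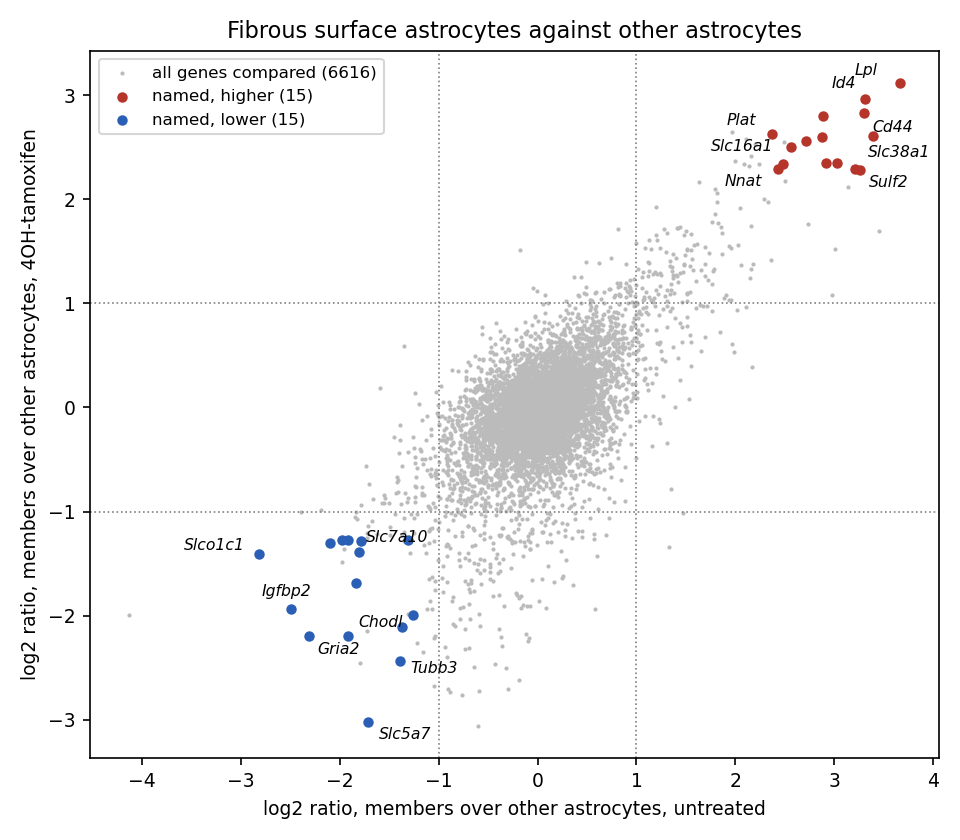
The log2 ratio of members over other astrocytes in the untreated (x axis) and 4OH-tamoxifen (y axis) library for the 6616 genes compared (grey), with 10 CPM added to each level. Red and blue points are the 15 genes on each side with the largest ratios and dotted lines mark 2-fold; *Lpl* lies at 3.67 and 3.12, and *Slc5a7* lies lowest of the named genes in 4OH-tamoxifen, at a ratio of 0.123.

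On the other side, 65 of the 6616 genes (0.982%) were at least 2-fold lower in members in both libraries. *Gria2*, the AMPA receptor subunit that limits calcium entry, was at 94.4 and 104 CPM in members against 508 and 510 in other astrocytes, 4.96 and 4.57 times lower. *Grm5*, a metabotropic glutamate receptor of young astrocytes, was 3.56 and 3.23 times lower. *Igfbp2*, a binding protein of insulin-like growth factors, was at 283 and 208 CPM against 1645 and 822, 5.65 and 3.82 times lower. *Slc7a10*, a carrier of D-serine and glycine, was at 355 and 249 CPM against 1265 and 669, 3.49 and 2.62 times lower. *Mfsd2a*, a lysophospholipid transporter, was 4.27 and 2.46 times lower, *Slco1c1*, a thyroid hormone transporter, 7.07 and 2.66, and *Htra1*, a secreted protease, 3.45 and 2.43. The other named genes on this side were *Chodl*, *Slc5a7*, *Tubb3*, *Sez6l*, *B3galt2*, *Apln*, *Slc29a3* and *Glrb*.

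*Chodl*, *Slc5a7*, the choline transporter, and *Tubb3*, neuronal tubulin, are neuronal genes. UMIs of the 12-gene neuron list summed to 415 and 718 CPM in members and to 829 and 3307 CPM in other astrocytes, and 6 of its genes had enough UMIs to compare, of which *Tubb3*, *Stmn2* and *Nefm* were lower and 0 higher. Without cells that held more than 5 UMIs of that list, an alternative chosen after the data were seen, *Chodl* was no longer lower, with log2 ratios of 0.22 and 0.39, and *Tubb3* (-0.32 and -0.38), *Slc5a7* (-1.02 and -0.10) and *Glrb* (-0.25 with 4OH-tamoxifen) were not past 2-fold in both libraries. In the same cells 171 genes were higher and 61 lower. Against protoplasmic astrocytes, those with at most 1 UMI of *Myoc*, *Gfap* and *C4b* and at least 2 of *Slc7a10* and *Slc6a11*, *Gria2* ratios were 0.194 and 0.233 and *Igfbp2* ratios 0.168 and 0.207, while *Chodl* was at 0.706 and 1.12, *Tubb3* at 0.625 and 0.529, *Glrb* at 0.510 and 0.641 and *Slc5a7* at 0.550 and 0.429. These 4 were thus not past 2-fold in both libraries against protoplasmic astrocytes, nor were *Stmn2* (0.768 and 0.652) and *Nefm* (0.669 and 0.625).

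Gene lists were chosen with earlier results of these data known, so counts on them are a description. Of 22 genes of white matter and surface astrocytes compared, 10 were at least 2-fold higher in both libraries, namely *Vim*, *S100a6*, *Id1*, *Cd44*, *Tnc*, *Igfbp5*, *Slc38a1*, *Fxyd1*, *Ezr* and *Cd9*, and *Igfbp2* and *Ptgds* were lower. Over all genes compared, 2.18% were higher and 0.982% lower. The *Ptgds* UMIs of untreated other astrocytes came from 41 of 552 cells, and against protoplasmic astrocytes its ratios were 0.796 and 0.314. The list's median log2 ratio was 1.12 in untreated and 1.18 in 4OH-tamoxifen cells, against 0.04 and -0.02 over all genes compared. *Vim*, the partner of GFAP in the filament, was at 128 and 109 CPM in members and 20.8 and 12.3 in other astrocytes. *Fxyd1*, a regulator of the sodium pump, was at 818 and 631 CPM against 225 and 143. Not all genes of the list were higher, since *S100b*, a calcium-binding protein found in most astrocytes, had ratios of 1.14 and 1.06, and *Crym* had at most 1 UMI among the members of a library.

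Protoplasmic genes were also counted in members. Of 24 protoplasmic genes compared, *Slc7a10*, *Gjb6* and *Htra1* were lower and *Mlc1* higher, and the other 20 were within 2-fold in at least 1 library, with a list median of -0.57 and -0.22. *Slc6a11*, the GABA transporter GAT3, was at 1869 and 1301 CPM in members against 3214 and 2108, ratios of 0.583 and 0.619. It was counted in 91.6% and 79.9% of members, against 35.2% and 40.0% of microglia, and after thinning in 85.1% and 79.3% against 23.1% and 34.2%. *Aldoc*, an enzyme of glycolysis, was at 2465 and 2478 CPM against 2114 and 2034, and *Slc1a2*, the main glutamate transporter, at 1739 and 2156 CPM against 2262 and 2286. *Ntsr2*, a neurotensin receptor, was on the higher side, with ratios of 1.89 and 2.01.

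Endfoot genes, which anchor the water channel at vessels and at the surface, differed among themselves. Of 15 compared, *Mlc1*, *Lamb2*, *Fxyd1* and *Ezr* were higher and *Gjb6* lower, with list medians of 0.05 and 0.42. *Mlc1*, a membrane protein of endfeet, was at 1105 and 838 CPM in members against 458 and 342. The anchoring genes *Dag1* and *Dmd* had ratios of 1.00 and 1.16, and of 0.767 and 0.985. *Aqp4* was part of the rule and is given without a ratio, at 6413 CPM (6201 to 6630) and 4616 CPM (4486 to 4750) in members.

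Of 14 genes of CO2, pH and potassium handling compared, *Slc16a1* was higher and *Gjb6* lower, with list medians of 0.03 and -0.16. The potassium channel *Kcnj10* was at 698 and 542 CPM in members against 721 and 466 in other astrocytes, and its partner *Kcnj16* at 120 and 130 CPM against 116 and 98.4. The bicarbonate cotransporter *Slc4a4* was at 1297 and 1256 CPM against 1261 and 1034. *Gjb6*, connexin 30, was at 167 and 121 CPM against 439 and 265, 0.393 and 0.478 times the level in other astrocytes. *Gjb2*, connexin 26, was sparse, at 22.2 and 9.79 CPM in members, and was counted in 6.02% and 2.21% of them, against 4.35% and 2.75% of other astrocytes, where it was at 26.0 and 12.3 CPM, and 0.865% and 0.159% of microglia.

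Carriers for transmitters and their recycling split in direction. Of 15 compared, *Slc38a1* and *Slc7a11*, the cystine and glutamate exchanger, were higher and *Slc7a10* was lower, with list medians of 0.05 and 0.08. The glycine transporter *Slc6a9* had ratios of 0.423 and 0.532, and glutamine synthetase, *Glul*, 0.528 and 0.759, both lower in the members of each library but not past 2-fold in both. Of 22 genes of the BMP, Notch and Id list, *Id1*, *Id4*, *Hopx* and the receptor *Bmpr1a* were higher and *Bmp4* lower (0.560 and 0.600 against protoplasmic astrocytes), with list medians of 0.30 and 0.49. *Id3* was at 1930 and 1231 CPM against 1032 and 533, while *Id2*, of the same family, had ratios of 0.689 and 1.01. Of 11 genes of radial glia and progenitors, *Vim*, *Hopx*, *Tnc*, *Prom1* and *Dbi* were higher and 0 lower, against 2.18% and 0.982% of all genes. The list medians were 0.996 and 1.18, and *Vim*, *Tnc* and *Hopx* also stand on lists given above. In the same cells *Nes*, nestin, was counted in 0 of 166 untreated members, which allows up to 1.81% of cells with a UMI (3 counts), and in 1.77% of 4OH-tamoxifen members. It was counted in 1.27% and 1.07% of other astrocytes and in 8.07% and 5.26% of microglia.

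Of 4 pan-reactive genes compared, *Cd44* and *Vim* were higher and 0 lower, against 2.18% and 0.982% of all genes, and these also stand on the lists above. The medians of these 4 were 1.70 and 1.48, and the whole list summed to 405 and 389 CPM in members and 112 and 115 CPM in other astrocytes. *Lcn2*, a defining gene of reactive astrocytes, was counted in 0 of 166 and 0 of 453 members, which allows up to 1.81% and 0.662% of cells with a UMI (3 counts) and sets no limit on cells that express it. *C3*, complement component 3, was counted in 2 untreated members (1.20%, 0.146 to 4.28) and 15 of the other library (3.31%, 1.87 to 5.40), against 0.288% and 0.159% of microglia and none of the other astrocytes. *Serpina3n*, an acute phase protease inhibitor, was counted in 21.1% (15.1 to 28.1) and 12.1% (9.28 to 15.5) of members, against 6.70% and 5.96% of other astrocytes and 1.73% and 0.957% of microglia. After thinning it was in 13.0% and 10.3% of members. Of 3 complement genes compared, 0 were past 2-fold in both libraries, and of the A1 and A2 lists only *S100a10* was, among 1 and 2 genes compared. Of the lists of metallothionein and iron (9 genes compared), glucocorticoid response (10), dissociation and immediate early response (7) and cell cycle (2), 0 genes were past 2-fold in both libraries. Of 23 genes of the extracellular matrix and secreted proteins, *Tnc*, *Ncan*, *Igfbp5* and *Lamb2* were higher and *Igfbp2*, *Spp1* and *Gpc5* lower, of which *Spp1* was at 0.525 and 0.608 against protoplasmic astrocytes.

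Transcripts of other cell types were counted in members too, those of oligodendrocytes at higher summed levels than *Gfap*, and their part in the values above was not tested except where given. Microglial genes summed to 157 and 213 CPM in members and 164 and 197 CPM in other astrocytes, and endothelial genes to 233 and 163 against 268 and 208. Oligodendrocyte genes summed to 12780 and 16340 CPM against 14210 and 15110, with 0 of 10 at 0. Precursor genes were at 548 and 770 CPM against 1076 and 1077, and *Gpr17*, of immature oligodendrocytes, was the gene lower in both libraries, though at 0.555 and 0.548 against protoplasmic astrocytes. Genes of fibroblasts and the pia summed to 368 and 213 CPM against 587 and 318, with *Col1a1* and *Col3a1* lower in members (but at ratios of 1.46 and 0.455, and of 1.36 and 0.667, against protoplasmic astrocytes), and genes of pericytes to 154 and 234 against 291 and 174. Ependymal genes summed to 287 and 215 CPM against 66.2 and 38.8, but 7 and 6 of 12 were at 0 in members and *Mia* was the only gene past 2-fold. *Foxj1*, a defining gene of ciliated ependymal cells, was counted in 4.82% and 3.09% of members and 0.288% and 0.797% of microglia.

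Levels were also compared along the UMI sum that chose the members. The sum of *Myoc*, *Gfap* and *C4b* was split into 7 ranges over all cells of the astrocyte gate, from 0 to 32 and more, and deeper cells can hold more UMIs, so these ranges are not independent of depth or of the rule and the values are a description. *Id4* was at 17.6 and 18.9 CPM in cells with a sum of 0, 178 and 170 CPM at 4 to 7 and 322 and 326 CPM at 32 and more. *Slc38a1* was at 14.3 and 50.7 CPM, 97.7 and 106 CPM, and 503 and 708 CPM in the same ranges. *Igfbp2* went the other way, at 1786 and 916 CPM, 835 and 386 CPM, and 23.4 and 94.4 CPM. *Gria2* was at 541 and 547 CPM at 0 and 17.6 and 51.5 CPM at 32 and more. *Slc4a4* stayed between 1020 and 1395 CPM over all ranges and both libraries.

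**Figure D3:**
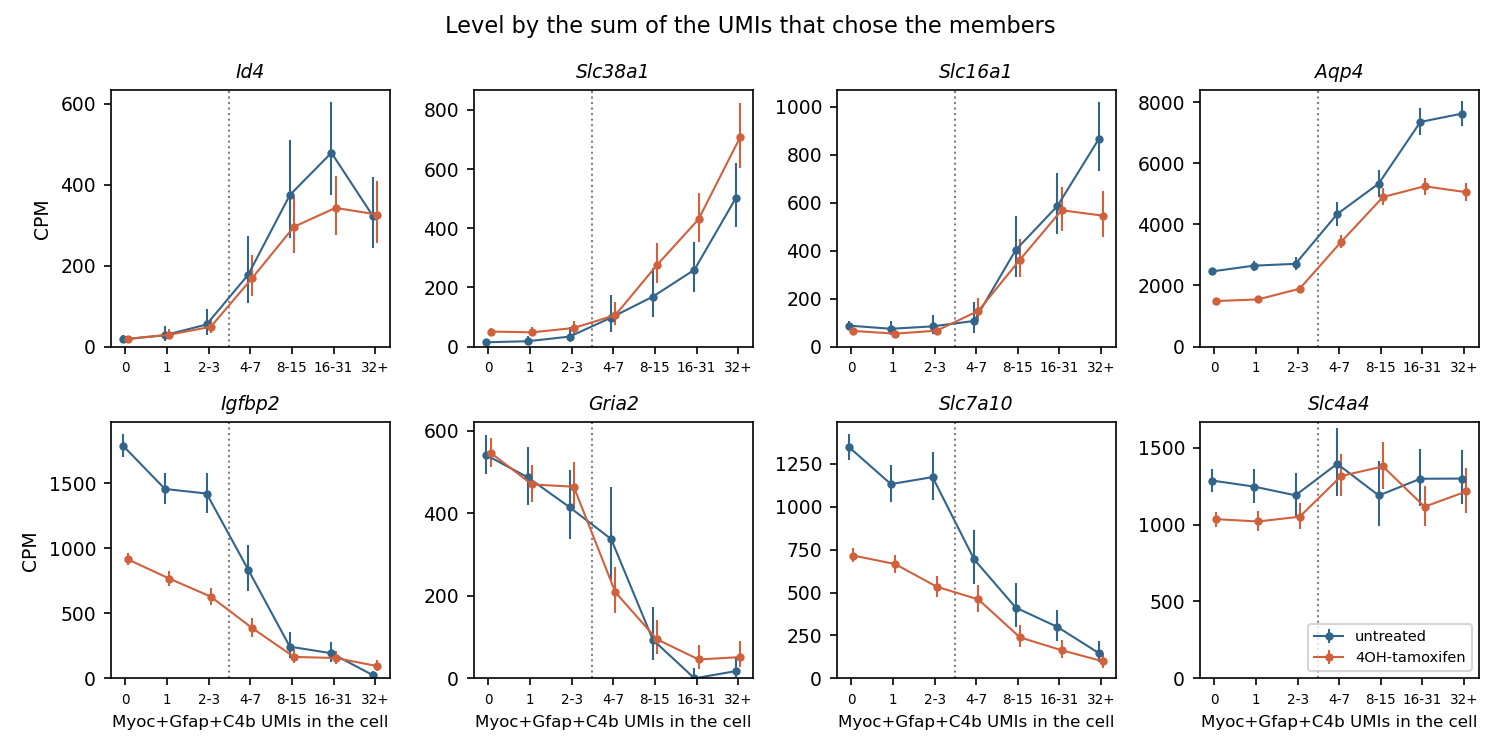
CPM of 8 genes by the UMI sum of *Myoc*, *Gfap* and *C4b* in the cell, for untreated (blue) and 4OH-tamoxifen (orange) astrocytes, with exact 95% Poisson intervals and the rule's threshold dotted. *Slc7a10* is at 1346 and 715 CPM at a sum of 0 and at 146 and 98.7 CPM at 32 and more, while *Slc4a4* shows no such course.

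Members were also compared by their *Myoc* UMIs, a split chosen after the values were seen. Members with 0 *Myoc* UMIs were 66 (39.8%, 32.3 to 47.6) of untreated and 262 (57.8%, 53.1 to 62.4) of 4OH-tamoxifen members, and those with 4 or more were 71 (42.8%, 35.1 to 50.7) and 69 (15.2%, 12 to 18.9). The latter had a median of 2856 UMIs against 3183.5 in the untreated library and of 2386 against 2091.5 in the other, so they were shallower in the former and deeper in the latter. Of 6450 genes compared, 65 (1.01%) were at least 2-fold higher and 51 (0.791%) at least 2-fold lower with 4 or more *Myoc* UMIs than with 0, in both libraries.

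Of 21 genes of the matrix and secreted list compared, *Igfbp5* and *Igfbp7* were higher with *Myoc* and *Hapln1*, *Igfbp2* and *Gpc5* lower, with medians of 0.05 and 0.06. Among the genes with the largest ratios, *Sema3b*, a secreted guidance protein, had ratios of 6.33 and 4.58, and *Cd59a*, an inhibitor of complement lysis, 5.70 and 4.09. *Lpl* was at 364 and 188 CPM with *Myoc* and 47.7 and 49.4 CPM without, and *Sulf2* at 812 and 753 CPM against 147 and 221. *Slc38a1* was at 485 and 729 CPM against 104 and 228, and *Slc16a1* at 916 and 606 CPM against 173 and 255. In members without *Myoc* these last 4 genes lay between the other astrocytes and the members with *Myoc*. *Id4* and *Nnat* differed less, with ratios of 1.42 and 1.76 and of 1.35 and 1.15. *Gfap* itself was at 7932 and 13720 CPM with *Myoc* and at 3153 and 5483 CPM without, values that the rule bears on, since it set a minimum on the sum of both.

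Of 24 protoplasmic genes compared, *Slc7a10*, *Slc6a11*, *Slc6a9*, *Glul*, *Htra1* and *Cldn10* were lower and 0 higher, with list medians of -0.65 and -0.62. *Slc6a11* was at 839 CPM (723 to 969) and 512 CPM (410 to 631) with *Myoc*, and at 2975 and 1715 CPM without it. *Glul* was at 220 and 312 CPM against 741 and 717. Other astrocytes had 3214 and 2108 CPM of *Slc6a11* and 864 and 767 CPM of *Glul*, and members without *Myoc*, which also had fewer *Gfap* UMIs (a median of 7 and 8 against 20 and 31), lay nearer the threshold that set other astrocytes apart. *Slc7a10* was at 148 and 106 CPM with *Myoc*, 581 and 329 CPM without, and 1265 and 669 CPM in other astrocytes. Genes of CO2 and pH sensing differed less, with *Kcnj10* ratios of 0.574 and 0.885 and *Slc4a4* ratios of 0.843 and 0.690.

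**Figure D4:**
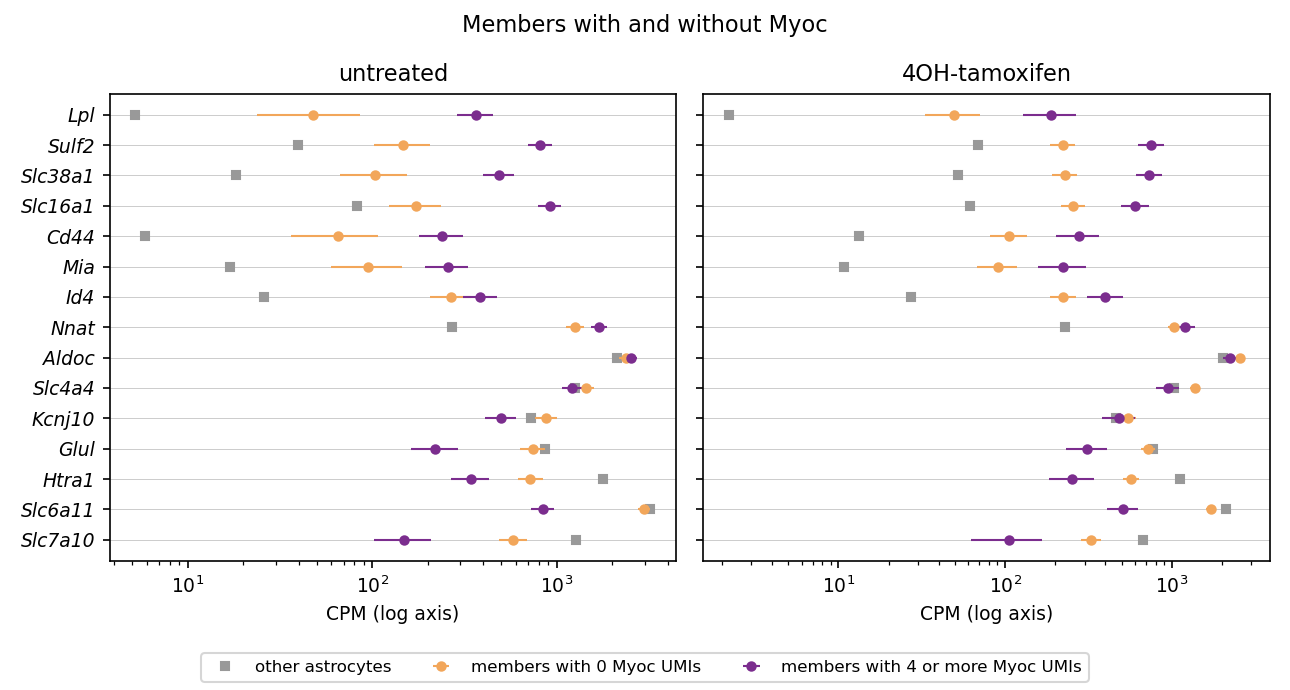
CPM on a log axis of 15 genes in other astrocytes (grey squares), members with 0 *Myoc* UMIs (orange) and members with 4 or more (purple), per library, with exact 95% Poisson intervals for the members. *Lpl* is at 47.7 and 364 CPM without and with *Myoc* in untreated members, and *Slc6a11* at 2975 and 839 CPM.

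Members were also compared between the libraries, where 1 ratio per gene decides a call. Of 6445 genes compared, 34 (0.528%) were at least 2-fold higher in untreated members and 62 (0.962%) in 4OH-tamoxifen members, after 10 CPM was added. In other astrocytes 27 of the 34 and 58 of the 62 were on the same side, 6 and 21 of them past 2-fold. Both counts moved widely with the CPM added and with the mitochondrial limit, under which the untreated count became the larger. These values are given in the last section. The genes named by rule on the untreated side were *Vtn*, *Nppc*, *Ramp2*, *Gdf10*, *Dhcr7* and *Cd9*, and on the other side *Rap2a*, *Polr2m*, *Srcin1*, *Pcp4*, *Whsc1* and *Kif5c*. The ratio in other astrocytes of the same libraries is given beside it where they had enough UMIs.

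On the untreated side, *Nppc*, C-type natriuretic peptide, had 99.9 CPM (75.1 to 130) in untreated members and 27.4 CPM (18.2 to 39.6) in the others, a ratio of 2.94. *Gdf10*, a growth factor of the TGF-beta superfamily, had a ratio of 2.63. In other astrocytes *Nppc* had 0 and 5 UMIs and *Gdf10* 0 and 2, too few to compare the libraries there. *Ramp2*, a partner of the calcitonin-like receptor, had a ratio of 2.63 in members against 1.19 in other astrocytes. *Cd9*, a tetraspanin, was at 1495 CPM (1394 to 1602) and 571 CPM (526 to 619), a ratio of 2.59 against 2.06, and *Dhcr7*, the last enzyme of cholesterol synthesis, 2.59 against 2.29. *Vtn*, vitronectin, which pericytes also express, was at 68.5 and 16.7 CPM, a ratio of 2.94 against 3.36. Genes of pericytes summed to 154 and 234 CPM in the same members. The *Vtn* ratio turned to -1.44 on the log2 scale among members with 4 or more *Myoc* UMIs, an alternative added after the data were seen. Between the same libraries *Vtn* had a ratio of 2.13 in oligodendrocytes, 2.75 in microglia and 0.870 in endothelial cells. *Cd9* was at 2.02, 1.21 and 1.74 in these types. *Nppc*, *Ramp2*, *Gdf10* and *Dhcr7* were within 2-fold in each of them.

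On the 4OH-tamoxifen side, *Rap2a*, a small GTPase, had 86.2 CPM (69.1 to 106) with 4OH-tamoxifen and 22.2 CPM (11.5 to 38.8) without, a ratio of 2.99 against 1.64 in other astrocytes. *Kif5c*, a kinesin, had a ratio of 2.45 against 2.73, *Srcin1* 2.58 against 2.39 and *Pcp4* 2.54 against 1.92. In untreated members these genes had 10, 10 and 13 UMIs, and *Whsc1*, given below, had 8. The interval of *Srcin1*, as untreated over 4OH-tamoxifen without the 10 CPM, was 0.133 to 0.569. Of 6 genes of the neuron list compared, *Tubb3* alone was past 2-fold in 4OH-tamoxifen members. UMIs of that list summed to 415 CPM in members without and 718 CPM in members with 4OH-tamoxifen, and to 829 and 3307 CPM in other astrocytes. *Tubb3* was at 44.4 and 106.7 CPM in members. The part of neuronal transcripts in these ratios was not tested. *Polr2m* and *Whsc1* had ratios of 2.87 against 1.29 and 2.53 against 1.59. As untreated over 4OH-tamoxifen, *Kif5c* was at 0.668 in oligodendrocytes, 0.416 in microglia and 0.533 in endothelial cells. Of the named genes on this side, only *Kif5c* in microglia was past 2-fold in these types. *Mt1*, metallothionein 1, chosen after its values were seen, was at 10040 CPM in 4OH-tamoxifen and 4933 CPM in untreated members. In other astrocytes it was at 7226 and 4996 CPM. The fibroblast and pia list was the only one with more than 1 gene on a side, *Col1a1* and *Igf2* of 3 compared, both in untreated members, where 6 of 166 cells held the 25 *Col1a1* UMIs. The list of white matter and surface genes had a median log2 ratio of 0.21 in members and 0.17 in other astrocytes. The libraries also differed in the share of members with *Myoc*, given above. Within members with 0 *Myoc* UMIs each of the 12 named genes was higher in the same library as over all members, and within those with 4 or more each was but *Vtn*.

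**Figure D5:**
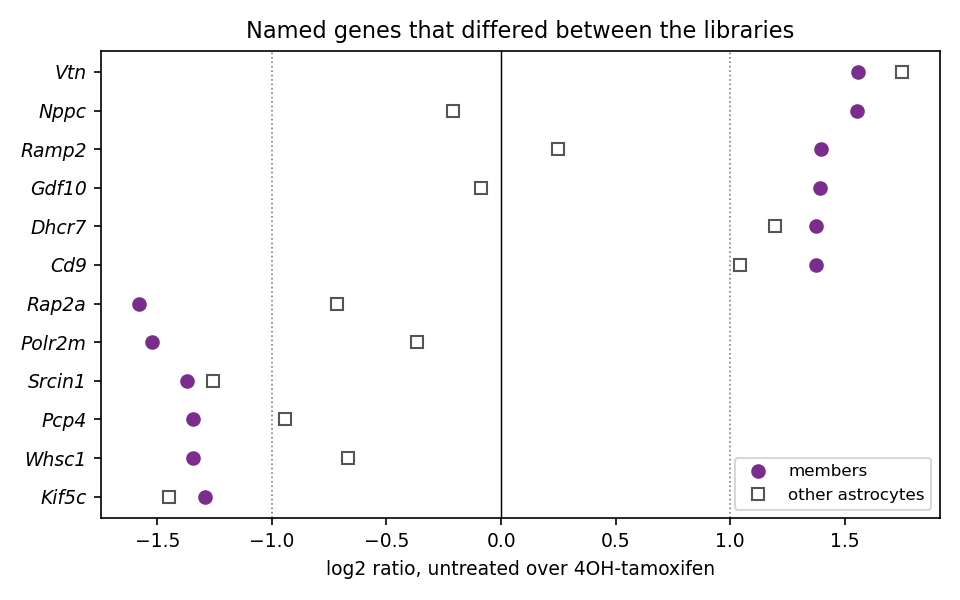
The log2 ratio of untreated over 4OH-tamoxifen CPM, with 10 CPM added, for the 12 genes named between the libraries, in members (filled circles) and other astrocytes (open squares), with dotted lines at 2-fold. *Kif5c* lies past 2-fold on the 4OH-tamoxifen side in both kinds of cell, and the squares of *Nppc* and *Gdf10* rest on at most 5 UMIs a library, so that the 10 CPM added set them near 0.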

How the data were processed

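Single-cell RNA from the ventral parafacial region was captured with 10X v2 chemistry, 1 library per condition. The authors converted reads with bcl2fastq 2.18.0.12 and deposited UMI counts per gene and barcode from Cell Ranger 2.2.0 (mm10, per the labels), without normalization; depth was 18496942 UMIs over 3767 barcodes and 34704167 over 10241. Doublets were not removed. From these counts, UMIs were summed over cells of each library and given as CPM. The 17 genes of the rule were left out of comparisons. Shares have Clopper-Pearson, levels Poisson and ratios exact conditional intervals at 95%; 3 counts set the limit for a share of 0. Python 3.11.15, SciPy 1.17.1 and scanpy 1.11.5 were used, and intervals and calls were tried on simulated Poisson counts of summed UMIs. That simulation had no spread between cells and no choice of members by their counts, so it cannot show how the intervals behave in these data. Named genes were the 15 with the largest ratio on each side in the library where it was smaller (at least 50 CPM in the higher cells of each library), 6 per side between libraries, and up to 4 of a list, with more where a count is spelled out; 1 of them is not reported here. Of 20 alternatives, 3 were added after the data were seen. Microglia had at least 4 UMIs of *C1qa* and *C1qb* and at most 1 of the genes of each other type, astrocytes excepted. Oligodendrocytes had at least 4 UMIs of *Mog* and *Mag*, and endothelial cells at least 4 of *Cldn5* and *Flt1*, also with limits on other types. Members and lists were chosen with earlier results of these data known. Positions are GENCODE's (GRCm38).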

Additional observations from a re-analysis of the deposited data

Results flagged for a closer look

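Myoc-rich cells also lay outside the members. Of 103 untreated and 93 4OH-tamoxifen filtered cells with 4 or more *Myoc* UMIs, 32 and 23 were left out because a UMI sum of another cell type exceeded its limit, most often that of *Pdgfra* and *C1ql1* (22 and 10 cells). A further 8 and 44 barcodes had the UMI sums of a member but failed the filter, 7 and 16 of them on mitochondrial UMIs and 0 and 30 on the number of genes. The ratio of members over other astrocytes had opposite directions in the libraries for 2 genes, and the difference was not tested. *Adam23* had ratios of 2.51 untreated and 0.396 with 4OH-tamoxifen, and *Chgb*, a protein of neuronal secretory granules, 2.78 and 0.494. Against protoplasmic astrocytes their ratios were 3.51 and 0.994, and 3.01 and 1.71.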

How the results depend on the processing

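No paired analysis was possible because each condition has 1 library, and for the same reason no replicate could be left out. Over 20 alternatives, 3 of them added after the data were seen, 992 of 1200 values of named genes stayed within their counting error, 203 moved further and 5 reversed. Reversed were *Chodl* in untreated cells when the rule was applied after thinning (log2 ratio 0.56), in 4OH-tamoxifen cells against protoplasmic astrocytes (0.17) and in both without neuron-rich cells (0.22 and 0.39), and *Vtn* between libraries with 4 or more *Myoc* UMIs (-1.44). Shares (untreated, then 4OH-tamoxifen) moved to 1.94% and 3.37% with at most 10% mitochondrial UMIs, 4.21% and 4.20% with a rule sum of 6, and 7.17% and 6.96% without limits on other types. With a rule sum of 3 they were 5.68% and 5.70%, with 1200 genes 4.78% and 3.29%, and after thinning 4.76% and 4.32%; here the 4OH-tamoxifen share alone left its narrower counting interval. Against the 144 genes higher, the number was 55 with 50 CPM added and 57 at a mean of 100 CPM. Against the 65 lower, the number was 108 with 1200 genes, 106 with 10% mitochondrial UMIs, 138 with 1 CPM added, 10 with 50 CPM and 19 at a mean of 100 CPM. Against 34 and 62 genes between libraries, the numbers were 91 and 128 with 1200 genes, 405 and 259 with 10% mitochondrial UMIs, where 41 untreated members were left, 64 and 106 after thinning, 105 and 158 with 1 CPM added, 3 and 2 with 50 CPM, 342 and 382 in members with 4 or more *Myoc* UMIs and 146 and 170 in those with 0. Without limits on other types 27 genes were higher with 4OH-tamoxifen. Where fewer cells entered, counts past a fold of 2 rest on fewer UMIs; other causes were not tested.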
